A study of Mus musculus with 48 samples.

Results

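The data describe how the first 6 h of C/EBPα activity differed between a wild-type and a mutant form of the factor in BCR/ABL-expressing mouse myeloid cells. For each gene, the change between 0 and 6 h of 4-hydroxytamoxifen (4-HT) in cells with the mutant K298E was subtracted from the same change in cells with the wild type (WT), and the result is called the WT minus K298E change. The arrays were chosen by their labelled line and time, which gave 12 of the 48 arrays of the series, 3 in each of 4 groups. The comparison addresses which early changes set the wild type apart from a form that the labels call deficient in DNA binding.

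C/EBPα is a basic leucine zipper transcription factor that binds DNA as a dimer and is needed for the formation of granulocytes from myeloid progenitors. It activates genes of the granulocyte and monocyte programme, and it also acts through contacts with other proteins that do not need its DNA-binding surface. In chronic myeloid leukaemia the BCR/ABL kinase lowers C/EBPα protein, and putting the factor back makes such cells leave the cell cycle and mature. In a C/EBPα-ER fusion the factor is joined to the estrogen receptor's ligand-binding domain, so that it is made continuously and becomes active once 4-HT is added.

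The series measured 32D cells, a mouse myeloid progenitor line, that carry p210 BCR/ABL and a MigRI retroviral vector, at 0, 6, 9 and 12 h of 4-HT with Affymetrix MOE430_2 arrays. The vector was empty or held C/EBPα-ER as WT, as K298E or as Δ(177-191), a deletion labelled deficient in the interaction with CDK2 and CDK4. All groups compared here therefore carry BCR/ABL and, after 0 h, have received 4-HT. The 4 groups are WT at 0 h, WT at 6 h, K298E at 0 h and K298E at 6 h. The labels name 1 line for each construct and no culture kept without 4-HT until 6 h, so an effect of the drug or of time in culture that differs between the lines cannot be told apart from one of the fusion. They call the arrays triplicates in one text and 3 experiments in another, so the p-values measure the spread between these arrays, which may be technical.

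Values are MAS5 signals on a linear scale, and changes are differences of log2(signal + 3) with the standard error (SE) of the model. A change passed the threshold at an adjusted p under 0.05 (limma, Benjamini-Hochberg over 45037 probe sets). Over the 12 arrays the median signal was 12 to 17, and 0.601% to 2.66% of probe sets read 0. Control ratios of 3' to 5' signal were 0.805 to 0.849 for Gapdh and 1.16 to 1.48 for actin, with overlapping ranges in the 4 groups. Of the defining genes of macrophages, 3 of 17 reached a signal of 100 (Adgre1, Cd68 and Lgals3), against 1 of 13 for neutrophils (Cxcr2), 2 of 18 for mast cells and related types, 4 of 14 for erythroid cells and megakaryocytes, 0 of 17 for lymphoid cells and 1 of 15 for fibroblasts. The summed macrophage genes read 2105 to 2235 in WT at 0 h and 1903 to 2086 at 6 h, and 1697 to 1796 and then 1859 to 1949 in K298E. The summed neutrophil genes read 331 to 372 in WT at 0 h and 386 to 474 at 6 h, without overlap, and 277 to 294 and then 258 to 279 in K298E. Of them Camp, Chil3, Elane and Mmp8 had means below 10 in all 4 groups. In bulk RNA a change in the number of cells that express a gene cannot be told apart from a change per cell.

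The Esr1 probe set, which reads the receptor part of the fusion, checked the lines. It read 2607, 2589 and 2228 in WT at 0 h and 2378, 2241 and 2484 at 6 h, and 1316, 1403 and 1599 and then 1230, 979 and 1190 in K298E. Vector cells read 18.3 ± 1.15 (SD, n = 3) at 0 h. Both fusion lines were thus far above vector cells, and every WT array was above every K298E array. The WT minus K298E change of Esr1 was 0.29 ± 0.34 (adjusted p = 0.857). What the lower level of the K298E fusion contributes to the differences below was not tested.

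Of the 45037 probe sets, 1232 (2.74%) passed the threshold, 539 with a higher WT minus K298E change (1.2%) and 693 with a lower one (1.54%). With 1 probe set for each of 18193 genes, 311 genes were higher (1.71%) and 455 lower (2.5%), 4.21% together, and 61 of the higher and 98 of the lower ones differed by more than 2-fold. The median over all genes was -0.03. For comparison, 6606 probe sets (14.7%) changed in WT cells between 0 and 6 h and 2117 (4.7%) in K298E cells. The count fell to 256 when arrays were centred on their medians, which are whole numbers between 12 and 17 here, and to 390 without the arrays numbered 2 in all groups. Leaving out any 1 of the 12 arrays gave 968 to 1185.

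Most of the called genes moved in the WT line. The 311 higher genes had a median log2 change of 0.75 in WT and 0.10 in K298E, and in 273 of them the WT change was the larger. The 455 lower genes had medians of -0.88 in WT and -0.15 in K298E, and the WT change was the larger in 420. In the other 38 and 35 genes the K298E cells moved the opposite way by as much or more. Both arms are parts of the tested difference, so these counts only describe it. Ndrg1 is the gene among the 30 named by size whose call came from the K298E arm.

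**Figure D1:**
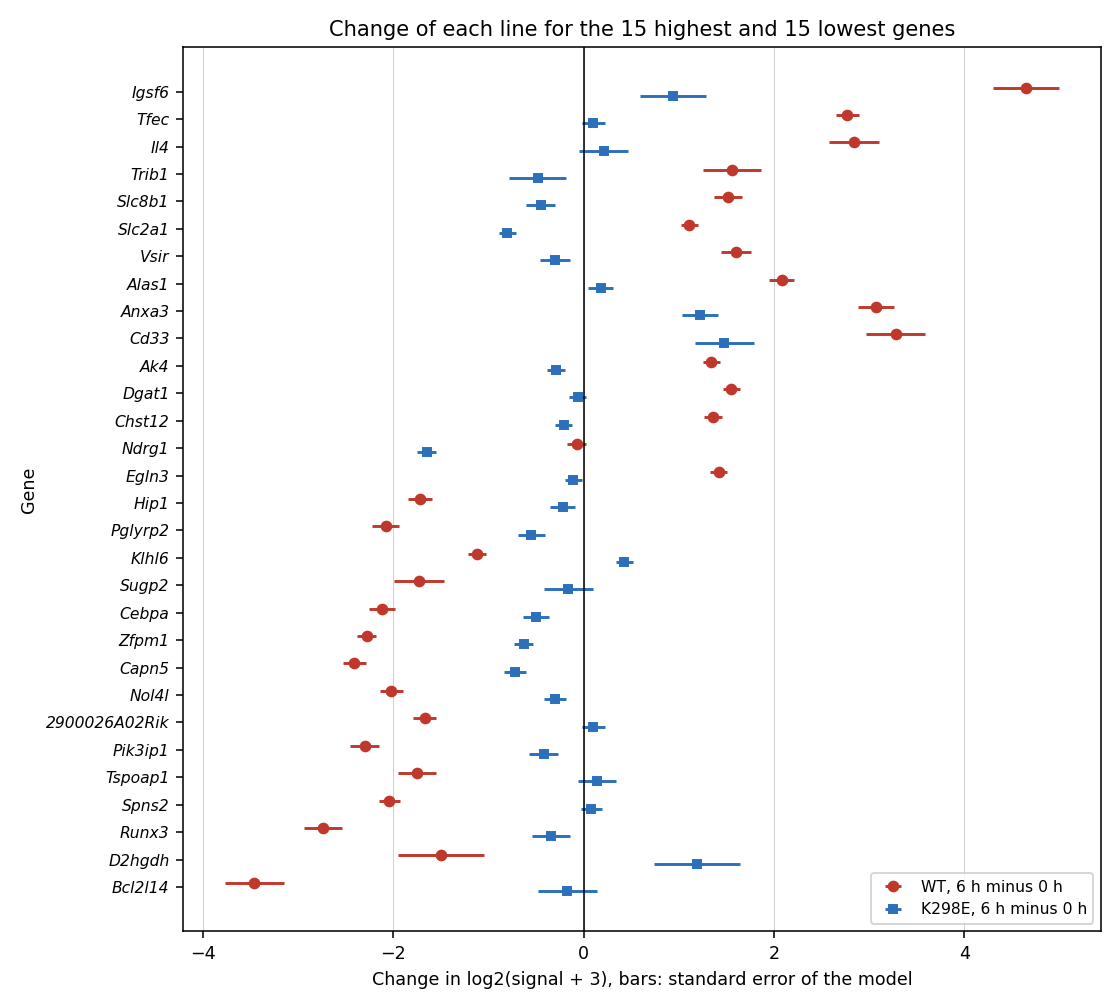
Change between 0 and 6 h in the WT line (circles) and the K298E line (squares) for the 15 highest and 15 lowest genes, in log2(signal + 3), with bars for the standard error of the model. WT changes lie far from 0 for all but Ndrg1 (-0.07), while most K298E changes lie between -1 and 1.

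The 15 genes with the highest WT minus K298E change and a signal of at least 100 were Igsf6, Tfec, Il4, Trib1, Slc8b1, Slc2a1, Vsir, Alas1, Anxa3, Cd33, Ak4, Dgat1, Ndrg1, Chst12 and Egln3, from 3.70 down to 1.53 on the log2 scale, and the next was Ada at 1.53. They include receptors of myeloid cells (Igsf6, Vsir, Cd33), a cytokine (Il4), regulators (Tfec, Trib1) and enzymes or transporters of glucose, haem and lipid use (Slc2a1, Alas1, Dgat1). These genes were chosen by the difference that the values below describe. A mean signal of 100 in any of the 4 groups was enough, and Igsf6, Il4, Trib1, Slc8b1 and Cd33 reached it only in WT at 6 h. For these genes the high WT signal at 6 h was thus part of the choice. Of 15 further probe sets for these genes, 10 passed the threshold in the same direction and 0 in the other.

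Igsf6, an immunoglobulin-like receptor of myeloid cells, read 1, 2 and 1 in WT at 0 h and 127, 93 and 98 at 6 h, against 1, 1 and 1 and then 10, 2 and 4 in K298E. Of these 12 arrays, the 3 of WT at 6 h stood far above the others, and its log2 difference of 3.70 ± 0.50 (adjusted p = 1.62e-06) depends on the added 3. Tfec, a basic helix-loop-helix factor of macrophages, read 193, 189 and 207 in WT at 0 h and 1319, 1391 and 1366 at 6 h, and 331, 359 and 343 and then 376, 367 and 363 in K298E. WT started below K298E and ended far above it, a difference of 2.67 ± 0.17 (adjusted p = 9.02e-16). In vector cells Tfec rose by 0.65 ± 0.12 (adjusted p = 7.19e-05), beside 2.77 ± 0.12 in WT. Il4, the cytokine interleukin-4, read 87, 74 and 83 and then 684, 601 and 524 in WT, and 35, 32 and 45 and then 41, 45 and 44 in K298E. Its K298E groups overlapped while the WT groups did not, and the difference was 2.63 ± 0.37 (adjusted p = 3.13e-06).

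Alas1, the first enzyme of haem synthesis outside red cells, read 132, 145 and 148 and then 670, 544 and 613 in WT, and 139, 101 and 94 and then 113, 136 and 127 in K298E. The lines overlapped at 0 h and in K298E also at 6 h, and the difference was 1.89 ± 0.18 (adjusted p = 4.14e-10). Dgat1, the enzyme of the last step of triacylglycerol synthesis, read 230, 202 and 223 and then 675, 623 and 636 in WT, and 155, 165 and 168 and then 135, 169 and 166 in K298E. Chst12, a sulfotransferase of chondroitin chains, read 230, 285 and 251 and then 618, 689 and 662 in WT, and 218, 238 and 224 and then 184, 222 and 182 in K298E. Both rose in WT without a change past the threshold in K298E, with differences of 1.61 ± 0.12 (adjusted p = 4.40e-13) and 1.57 ± 0.12 (adjusted p = 1.74e-12). Slc8b1, the mitochondrial sodium-calcium exchanger, went from a mean of 68.3 ± 6.66 (SD, n = 3) to 201 ± 11.8 in WT and from 54.0 ± 8.54 to 38.3 ± 2.52 in K298E. Anxa3, a phospholipid-binding annexin of neutrophils, rose in both lines, from 196 ± 13.0 to 1683 ± 279 in WT and from 85.3 ± 5.03 to 202 ± 13.1 in K298E, and the WT rise was larger by 1.86 ± 0.26 (adjusted p = 4.54e-06).

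The 15 lowest were Bcl2l14, D2hgdh, Runx3, Spns2, Tspoap1, Pik3ip1, 2900026A02Rik, Nol4l, Capn5, Zfpm1, Cebpa, Sugp2, Klhl6, Pglyrp2 and Hip1, from -3.29 to -1.51, and the next was Podxl at -1.49. They too were chosen by this difference, and Tspoap1 reached a mean signal of 100 only in WT at 0 h. Of 15 further probe sets, 6 passed the threshold in the same direction and 0 in the other.

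Runx3, a Runt-family transcription factor, read 328, 254 and 266 in WT at 0 h and 36, 50 and 34 at 6 h, and 263, 262 and 301 and then 187, 238 and 228 in K298E. The lines overlapped at 0 h, the WT arrays at 6 h lay far below all others, and the difference was -2.40 ± 0.28 (adjusted p = 6.64e-08). Spns2, an exporter of sphingosine-1-phosphate, read 1895, 1694 and 1597 and then 429, 487 and 346 in WT, and 1813, 1891 and 2033 and then 2162, 1843 and 2047 in K298E. The K298E arrays overlapped between the times, and the difference was -2.12 ± 0.16 (adjusted p = 3.59e-13). Bcl2l14, a BCL2-family member, read 190, 143 and 116 and then 9, 18 and 7 in WT, and 167, 111 and 125 and then 120, 99 and 135 in K298E. Only the WT arrays at 6 h stood apart, near background. The difference was -3.29 ± 0.43 (adjusted p = 1.06e-06), and its size depends on the added 3: it was -1.91 with 32 added.

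Pik3ip1, an inhibitor of phosphoinositide 3-kinase, went from 358 ± 6.08 to 70.3 ± 5.13 (SD, n = 3) in WT and from 204 ± 12.7 to 152 ± 1.73 in K298E. Its log2 change was -2.30 in WT, -0.42 in K298E and -1.49 in vector cells (adjusted p = 5.35e-10), which hold no fusion. Klhl6, a kelch-like protein of B-cell signalling, fell in WT from 335 ± 20.4 to 152 ± 8.19 and rose in K298E from 282 ± 12.5 to 381 ± 13.2, with arrays that did not overlap in either line. Capn5, a calpain protease, fell in both lines, from 308 ± 24.0 to 56.0 ± 9.54 in WT and from 264 ± 15.1 to 160 ± 15.7 in K298E. Hip1, a clathrin adaptor, fell in WT from 370 ± 16 to 111 ± 18.6 and went from 362 ± 20.8 to 315 ± 62.7 in K298E. D2hgdh, which oxidises D-2-hydroxyglutarate, had the widest spread, with 150, 172 and 315 and then 52, 65 and 97 in WT and 80, 59 and 115 and then 289, 155 and 152 in K298E. Its lines differed at 0 h and crossed by 6 h.

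Of these 30 genes, 4 lost the call under a setting tried. Cd33, a sialic acid-binding receptor of myeloid cells, had 1.80 ± 0.43 (adjusted p = 0.00968), and its adjusted p was 0.0501 without WT 0 h replicate 2, 0.0644 without K298E 6 h replicate 1, 0.0516 with 1 added in place of 3 and 0.0753 in a fit of the 12 arrays alone. Cd33 rose past the threshold in WT (3.28 ± 0.31), in K298E (1.48 ± 0.31) and also in vector cells (1.92 ± 0.31). Sugp2, a protein with splicing-factor domains, had -1.57 ± 0.37 (adjusted p = 0.00742), with 0.0553 without K298E 6 h replicate 1 and 0.123 under median centring. Leaving out all arrays of 1 number gave an adjusted p of 0.308 for Cd33 (number 2), 0.222 and 0.12 for Sugp2 (numbers 1 and 3), 0.0839 for Trib1 (number 3) and 0.064 and 0.0652 for D2hgdh (numbers 1 and 2).

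**Figure D2:**
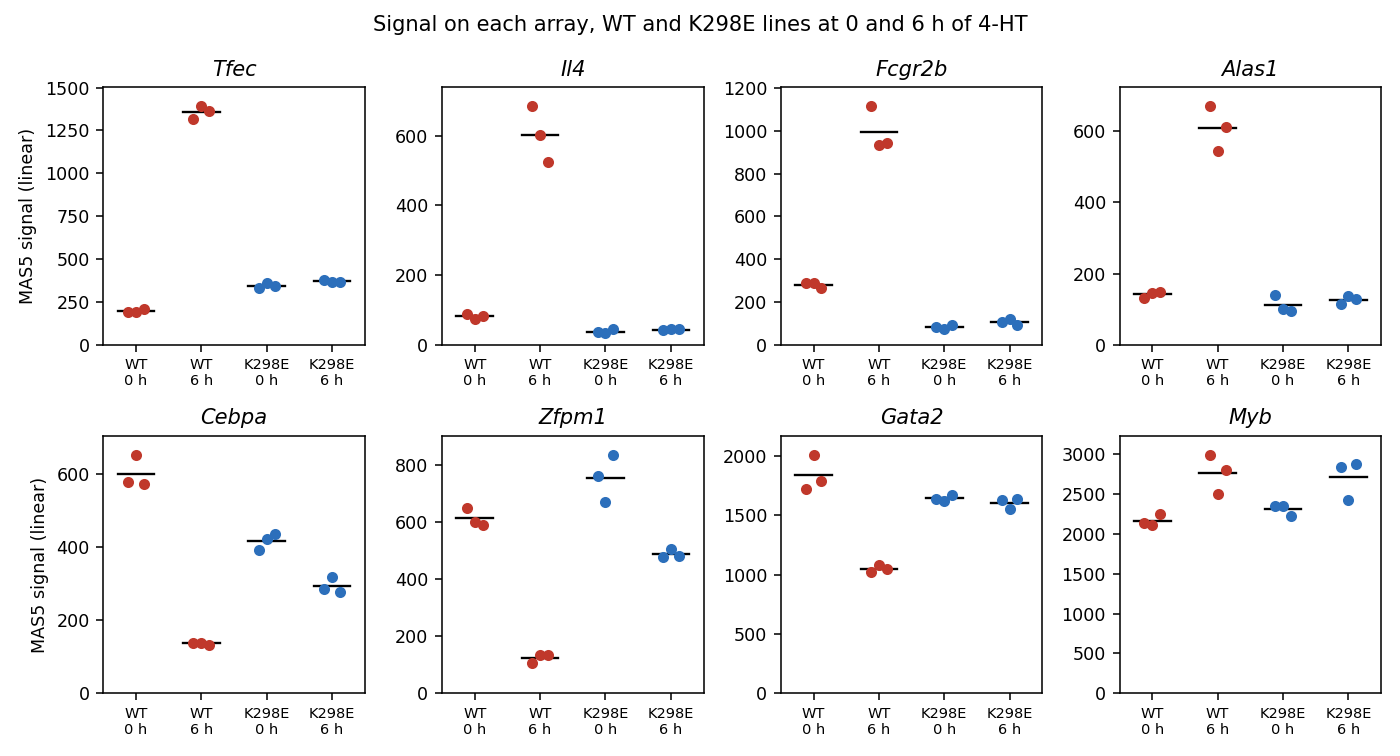
MAS5 signal on each of the 12 arrays (points) with the group mean (bar) for 8 genes, WT in red and K298E in blue, at 0 and 6 h of 4-HT; every vertical axis starts at 0. Tfec, Il4, Fcgr2b and Alas1 rise and Cebpa, Zfpm1 and Gata2 fall in WT, while the Myb points of the lines overlap at 6 h.

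C/EBP dimers bind a palindrome whose core reads TTGCNNAA, so the promoters of the 30 genes were searched for it on both strands. The RefSeq promoter table (GRCm38.p6, 250 bases before to 50 after the start) held 10 of the 15 highest and 13 of the 15 lowest genes. For these genes it holds 15 and 18 promoters. A match was present in 2 of the 15 (13.3%) and 1 of the 18 (5.56%), beside 10.8% of the 32851 promoters in the table. The stretches around the matches before the start sites of Il4 (chr11:53618676-53618743, minus strand), Ak4 (chr4:101419039-101419091, plus strand) and Pglyrp2 (chr17:32421107-32421202, minus strand) are shown because these are the named genes whose promoter windows hold the core. The capitals mark the match as read on the gene's strand, where TTNNGCAA is the same core read from the other strand:
Il4: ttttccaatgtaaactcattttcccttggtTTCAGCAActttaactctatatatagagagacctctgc
Ak4: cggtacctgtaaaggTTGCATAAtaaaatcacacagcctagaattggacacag
Pglyrp2: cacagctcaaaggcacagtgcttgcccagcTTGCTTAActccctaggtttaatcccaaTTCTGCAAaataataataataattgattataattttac
Pglyrp2, a peptidoglycan amidase, holds 2 matches and was among the lowest genes, at -1.52 ± 0.19 (adjusted p = 4.13e-07). Il4 and Ak4, a mitochondrial adenylate kinase, were among the highest. A match describes the letters of a window and is no measurement of binding.

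Of 14 members and regulators of the C/EBP family, 2 were higher (Trib1 and Nfil3) and 2 lower (Cebpa and Cebpg), beside 1.71% and 2.5% of all genes, with a median of 0.07. Cebpa itself read 580, 653 and 573 in WT at 0 h and 138, 139 and 132 at 6 h, and 392, 424 and 437 and then 287, 319 and 278 in K298E. It fell in both lines and further in WT, a difference of -1.62 ± 0.20 (adjusted p = 3.26e-07), while vector cells went from a mean of 190 to 75.3. Trib1, a pseudokinase that sends C/EBPα to degradation, read 52, 27 and 38 and then 100, 130 and 123 in WT, and 45, 22 and 29 and then 23, 18 and 23 in K298E, a difference of 2.04 ± 0.42 (adjusted p = 0.00176). Nfil3, a basic leucine zipper factor, rose in WT from 252 ± 23.3 to 632 ± 99.1 (SD, n = 3) and went from 294 ± 46.4 to 274 ± 50.5 in K298E, a difference of 1.42 ± 0.20 (adjusted p = 5.62e-06). The call of Cebpg, which dimerises with other C/EBPs, was lost under median centring (-0.47 ± 0.11, adjusted p = 0.0073, against 0.646). Cebpg changed by -0.48 in WT, -0.49 in vector cells and -0.01 in K298E.

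Of 25 myeloid transcription factors measured, of which 11 reached a signal of 100, 3 were higher (1.71% of all genes) and 0 lower (2.5%), with a median of 0.13. The higher ones were Tfec, Runx1 and Gfi1. Gfi1, a repressor that neutrophil formation needs, read 124, 132 and 125 in WT at 0 h and 274, 308 and 310 at 6 h, and 148, 138 and 137 and then 189, 182 and 170 in K298E. It rose in both lines and more in WT, by 0.86 ± 0.14 (adjusted p = 7.68e-05). Runx1, a core factor of blood formation, had 1.01 ± 0.23 (adjusted p = 0.00555), with WT signals of 110, 132 and 132 and then 147, 261 and 231. Only 1 of 5 further Runx1 probe sets passed the threshold. Median centring ended the calls of Gfi1 (adjusted p = 0.0859) and Runx1 (0.187).

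Of 25 transcription factors of stem and progenitor cells, 7 were lower (Zfpm1, Gfi1b, Gata2, Tal1, Cbfa2t3, Hhex and Lyl1) and 1 higher (Ikzf1), beside 2.5% and 1.71% of all genes. The median was -0.31 beside -0.03 over all genes. Gata2, a zinc finger factor of blood progenitors that the series title names, read 1724, 2009 and 1791 in WT at 0 h and 1026, 1080 and 1044 at 6 h, and 1639, 1618 and 1671 and then 1626, 1549 and 1638 in K298E. It fell in WT, with arrays at 6 h below all the others, its K298E groups overlapped, and the difference was -0.77 ± 0.12 (adjusted p = 2.63e-05). Zfpm1 (FOG-1), the cofactor of GATA proteins, read 650, 602 and 592 and then 105, 134 and 136 in WT, and 764, 672 and 837 and then 477, 506 and 481 in K298E, a difference of -1.65 ± 0.15 (adjusted p = 5.49e-11). Tal1, a basic helix-loop-helix factor that works with GATA proteins, fell in WT from 1401 ± 56.4 to 851 ± 59.8 and went from 1451 ± 26.2 to 1420 ± 81.1 in K298E (difference -0.69 ± 0.11, adjusted p = 2.60e-05).

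Myb, the other gene of the series title and a factor of progenitor growth, had no WT minus K298E change past the threshold. It read 2134, 2111 and 2254 and then 2994, 2508 and 2808 in WT, and 2352, 2347 and 2228 and then 2847, 2431 and 2874 in K298E. The arrays at 6 h were above those at 0 h in both lines and overlapped between the lines, the rise passed the threshold in WT (0.35 ± 0.10, adjusted p = 0.0101), and the difference was 0.12 ± 0.14 (adjusted p = 0.856). Cbfa2t3, a corepressor bound to Tal1, and Hhex, a homeobox factor, had differences of -0.67 ± 0.13 (adjusted p = 0.00128) and -0.60 ± 0.12 (adjusted p = 0.00179). Gfi1b, a repressor of erythroid and megakaryocyte precursors, had -0.98 ± 0.20 (adjusted p = 0.00143). Under median centring Zfpm1 alone of the 7 kept its call, and Gata2 had an adjusted p of 0.109, Gfi1b 0.0821, Tal1 0.28, Cbfa2t3 0.445, Hhex 0.612 and Lyl1 0.775. Ikzf1 and Lyl1 also lost it without single arrays, 10 and 9 of the 12, with adjusted p up to 0.162 and 0.114.

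Of 45 receptors and oxidase genes of phagocytes, 10 were higher (1.71% of all genes) and 2 lower (2.5%), with a median of 0.19. The higher ones were Igsf6, Vsir, Cd33, Fcgr2b, Clec4d, Fcgr1, Fcgr3, Gpr84, Itgam and Tlr2. The summed neutrophil markers given above, 386 to 474 in WT at 6 h against 331 to 372 at 0 h, were also higher. The summed macrophage markers went the other way in WT, 1903 to 2086 at 6 h against 2105 to 2235 at 0 h. Of the 13 neutrophil markers, 0 passed the threshold in either direction for the WT minus K298E change. Cxcr2, the only one that reached a signal of 100, is in the phagocyte list too. The part of either sum in the phagocyte and granule gene differences was not tested. Fcgr2b, the inhibitory receptor for IgG, read 286, 288 and 264 in WT at 0 h and 1114, 931 and 942 at 6 h, and 83, 75 and 91 and then 106, 122 and 92 in K298E. WT began above K298E and rose while the K298E change did not pass the threshold, a difference of 1.47 ± 0.19 (adjusted p = 3.27e-07), and 3 of 4 further probe sets passed the threshold in the same direction. Vsir, the checkpoint receptor VISTA, read 156, 124 and 134 and then 394, 400 and 477 in WT, and 43, 58 and 54 and then 32, 45 and 48 in K298E, a difference of 1.90 ± 0.22 (adjusted p = 8.37e-08).

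Gpr84, a receptor for medium-chain fatty acids, rose in both lines, from 68.0 ± 3.46 to 730 ± 21.7 (SD, n = 3) in WT and from 66.7 ± 14 to 363 ± 17.6 in K298E, and more in WT by 0.96 ± 0.18 (adjusted p = 0.000615). Itgam (CD11b), the α chain of the complement receptor of granulocytes, also rose in both, from 133 ± 10.8 to 504 ± 24.5 and from 45.3 ± 9.24 to 89.7 ± 5.77. Its difference of 0.95 ± 0.23 (adjusted p = 0.0089) lost the call without K298E 0 h replicate 2 (0.0571) and under median centring (0.108). Clec4d, a lectin receptor of myeloid cells, rose in WT from 95.3 ± 9.29 to 474 ± 33.5 and in K298E from 76.3 ± 5.03 to 147 ± 21.9. Fcgr3, an activating IgG receptor, rose in WT from 304 ± 13.0 to 710 ± 27.5 and went from 195 ± 8.19 to 232 ± 20.5 in K298E. The 2 lower members were C3ar1, the receptor for complement C3a, at -1.01 ± 0.19 (adjusted p = 0.000372), which rose in K298E from 91.7 ± 15.3 to 163 ± 15.6, and Pirb, an inhibitory immunoglobulin-like receptor, at -0.97 ± 0.16 (adjusted p = 5.28e-05), which fell in WT from 272 ± 5.13 to 160 ± 7.57. Vector cells, which hold no fusion, changed by -0.94 for Pirb (adjusted p = 2.15e-08), beside -0.76 in WT and 0.21 in K298E. Its part in the Pirb difference was not tested. Median centring ended the call of Pirb (0.0669), and Tlr2, at a signal under 100, lost its call without any 1 of 5 arrays, with adjusted p up to 0.11.

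Of 16 primary granule genes 0 were higher (1.71% of all genes) and 3 lower (2.5%), Lyz1, Lyz2 and Serpinb1a. Of 21 later granule and S100 genes 2 were higher (Anxa3 and Lcn2) and 1 lower (S100a4). The medians were 0.05 and -0.03. Lcn2, the iron-carrier-binding lipocalin of granules, read 575, 608 and 598 and then 1829, 1682 and 1687 in WT, and 223, 214 and 224 and then 335, 361 and 352 in K298E. It rose in both lines and more in WT, by 0.88 ± 0.20 (adjusted p = 0.00579). Lyz2, lysozyme, rose in K298E from 70.7 ± 4.51 to 108 ± 3.61 and went from 71.7 ± 1.53 to 59.3 ± 2.08 in WT, with arrays that did not overlap at 6 h (difference -0.85 ± 0.18, adjusted p = 0.00295). Lyz1 and Lyz2 are close copies whose probes may share signal. Under median centring the calls of Lyz1 (adjusted p = 0.0656), Lyz2 (0.227), Serpinb1a (0.518) and S100a4 (0.431) were lost, and that of S100a4 also without K298E 0 h replicate 2 (0.0547).

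Among 28 cytokine and chemokine ligands, 2 were higher (Il4 and Tnfsf9) and 1 lower (Tnf), beside 1.71% and 2.5% of all genes. Tnf and Tnfsf9 stayed under a signal of 100 and lost their calls without 7 and 6 of the 12 single arrays. Without K298E 0 h replicate 3 or K298E 6 h replicate 2 only 1 member was higher. Of 27 targets of BCR/ABL, STAT5 and ERK feedback, 2 were higher and 4 lower, beside the same shares, with a median of -0.17. Il2ra, the α chain of the interleukin-2 receptor and a STAT5 target, read 967, 966 and 770 and then 378, 479 and 428 in WT, and 646, 739 and 771 and then 883, 884 and 856 in K298E. It fell in WT, its K298E change did not pass the threshold, and the difference was -1.35 ± 0.16 (adjusted p = 6.53e-08). Pim2, a serine kinase that STAT5 induces, fell in K298E from 323 ± 11.2 to 190 ± 5.69 and went from 381 ± 9.02 to 338 ± 6.08 in WT (0.58 ± 0.11, adjusted p = 0.000419). Phlda1, a target of ERK signalling, rose in WT from 267 ± 10.5 to 566 ± 48.8 and went from 211 ± 35 to 263 ± 22.2 in K298E (0.75 ± 0.15, adjusted p = 0.00104). The 4 lower were Il2ra, Gab2, Dusp4 and Bcl2l1. Their count was 1 to 3 with any 1 array left out, and under median centring Il2ra alone of the 6 was called.

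Of 30 immediate early and AP-1 genes, 3 were higher (Fos, Fosl2 and Mafg) and 2 lower (Klf10 and Zfp36l2), beside 1.71% and 2.5% of all genes, with a median of 0.04. Zfp36l2, an RNA-binding protein that shortens the life of mRNAs, read 2213, 2115 and 1643 and then 1150, 1180 and 1184 in WT, and 2181, 2157 and 2276 and then 2085, 1891 and 2250 in K298E. WT arrays at 6 h lay below all the others, with a difference of -0.66 ± 0.14 (adjusted p = 0.00361). Klf10, a zinc finger repressor, had -0.92 ± 0.19 (adjusted p = 0.00188). Fos, a component of AP-1, stayed under a signal of 100, with means of 53.7 and then 80.3 in WT and 52.3 and then 28 in K298E. Under median centring none of the 5 kept its call, with adjusted p from 0.0685 (Fos) to 0.479 (Mafg), and Fosl2 lost it without 10 of the 12 single arrays.

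Of 29 genes for CDKs, their cyclins and inhibitors and the pocket proteins, 0 were higher (1.71% of all genes) and 3 lower (2.5%). Of 30 DNA replication genes 0 were higher and 1 lower, and of 27 genes of G2/M and mitosis 0 and 3. Cdkn2d (p19), an inhibitor of CDK4 and CDK6, read 668, 659 and 651 and then 306, 304 and 294 in WT, and 512, 541 and 538 and then 376, 374 and 383 in K298E. It fell in both lines and further in WT, a difference of -0.64 ± 0.10 (adjusted p = 4.27e-05). Ccnb2, cyclin B2, fell in WT from 1403 ± 7 to 894 ± 17.3 and went from 1189 ± 35.9 to 1043 ± 35.2 in K298E (-0.46 ± 0.09, adjusted p = 0.00146). For the lower mitosis genes Ccnb2, Nusap1 and Cenpf, vector cells also changed, by -0.45, -0.48 and -0.44. Their changes were -0.65, -0.82 and -0.59 in WT, and -0.19, -0.38 and 0.04 in K298E. Tk1, thymidine kinase, fell in both lines, with a difference of -0.50 ± 0.12 (adjusted p = 0.00831). The median was 0.03, 0.11 and -0.18 for the 3 lists. All 7 calls were lost under median centring (adjusted p from 0.347 for Cdkn2d upward), and the CDK list's count of 3 was 1 or 2 with any 1 array left out.

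Of 33 genes of the MYC network and of ribosome biogenesis, 11 were higher (1.71% of all genes) and 0 lower (2.5%), the other 22 did not pass the threshold, and the median was 0.41. The higher ones were Mxi1, Nolc1, Odc1, Bop1, Nop56, Cad, Ddx21, Nip7, Utp20, Dkc1 and Myc. Myc itself read 1119, 1198 and 1243 in WT at 0 h and 1714, 1974 and 2120 at 6 h, and 908, 852 and 840 and then 934, 857 and 869 in K298E. It rose in WT, the K298E groups overlapped, and the difference was 0.67 ± 0.13 (adjusted p = 0.00104). Nolc1, a nucleolar chaperone, read 508, 465 and 506 and then 1123, 1147 and 1177 in WT, and 652, 643 and 646 and then 918, 886 and 1028 in K298E, and rose in both lines, more in WT by 0.68 ± 0.13 (adjusted p = 0.000598). Of 2 further Nolc1 probe sets 0 passed the threshold, at 0.66 (adjusted p = 0.0603) and 0.48 (adjusted p = 0.176). Over the 33 genes, 25 rose in WT (8.68% of all genes) and 19 in K298E (3.22%). Vector cells, which hold no fusion, also rose in the called genes other than Mxi1, by less than WT and more than K298E. The log2 changes in WT, vector and K298E cells were 1.22, 0.95 and 0.54 for Nolc1. They were 1.07, 0.88 and 0.61 for Dkc1, and 0.95, 0.57 and 0.34 for Odc1. The part of a smaller rise in K298E in these differences was not tested. Mxi1, an antagonist of MYC that is also a target of hypoxia signalling, fell in K298E from 418 ± 19.5 to 253 ± 12.1 and read 390 ± 35.6 and then 395 ± 33.1 in WT. In vector cells Mxi1 changed by -0.78, beside -0.72 in K298E. Median centring left 1 of the 11 calls, that of Mxi1, and the count without the arrays numbered 2 was 2. Utp20, Dkc1 and Ddx21 lost their calls without 8, 3 and 2 of the single arrays.

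Of 29 glucose-use genes and targets of the hypoxia-inducible factor (HIF), 9 were higher (1.71% of all genes) and 0 lower (2.5%), with a median of 0.23. HIF is a transcription factor that raises glucose uptake and glycolysis and is marked for destruction by prolyl hydroxylases, which its targets include. The 9 were Ankrd37, Slc2a1, Ndrg1, Egln3, Bnip3, Hk2, Mxi1, Pdk1 and Pfkl, and over the list 4 members rose in WT (8.68% of all genes) and 7 fell (12.4%), while 1 rose in K298E (3.22%) and 14 fell (4.17%). Ankrd37 stayed under a signal of 100, and Mxi1 is in the MYC list too. Slc2a1 (GLUT1), the main glucose transporter of such cells, read 314, 334 and 321 in WT at 0 h and 659, 706 and 743 at 6 h, and 592, 617 and 680 and then 377, 326 and 381 in K298E. WT rose from below K298E to above it, K298E fell, and the difference was 1.91 ± 0.13 (adjusted p = 4.08e-14). Egln3, a HIF prolyl hydroxylase, read 913, 949 and 1022 and then 2457, 2649 and 2646 in WT, and 1352, 1365 and 1363 and then 1274, 1275 and 1233 in K298E, a difference of 1.53 ± 0.13 (adjusted p = 2.44e-11). Hk2, hexokinase 2, read 417, 438 and 357 and then 1045, 1019 and 1076 in WT, and 552, 560 and 560 and then 557, 625 and 621 in K298E. These 2 genes rose in WT and had no change past the threshold in K298E.

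Ndrg1 and Bnip3, both induced by hypoxia, differed through the other arm: they fell in K298E, and their WT groups overlapped. Bnip3, a mitophagy receptor, read 1114, 1141 and 1222 and then 1231, 1142 and 1111 in WT, and 1623, 1557 and 1630 and then 574, 561 and 601 in K298E, a difference of 1.47 ± 0.13 (adjusted p = 2.54e-11). Ndrg1 read 322, 394 and 385 and then 404, 323 and 321 in WT, and 430, 478 and 455 and then 136, 132 and 163 in K298E, a difference of 1.57 ± 0.15 (adjusted p = 1.78e-10). Vector cells, which hold no fusion, went from a mean of 750 to 249 for Ndrg1, from 796 to 514 for Slc2a1 and from 2052 to 969 for Egln3 over the same 6 h. The calls of 7 of the 9 held under median centring. Pfkl, a phosphofructokinase, and Pdk1, which shuts pyruvate out of the mitochondrial cycle, lost theirs (adjusted p = 0.343 and 0.348), Pdk1 also without 8 single arrays (up to 0.17) and Pfkl without WT 0 h replicate 3 (0.0603).

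**Figure D3:**
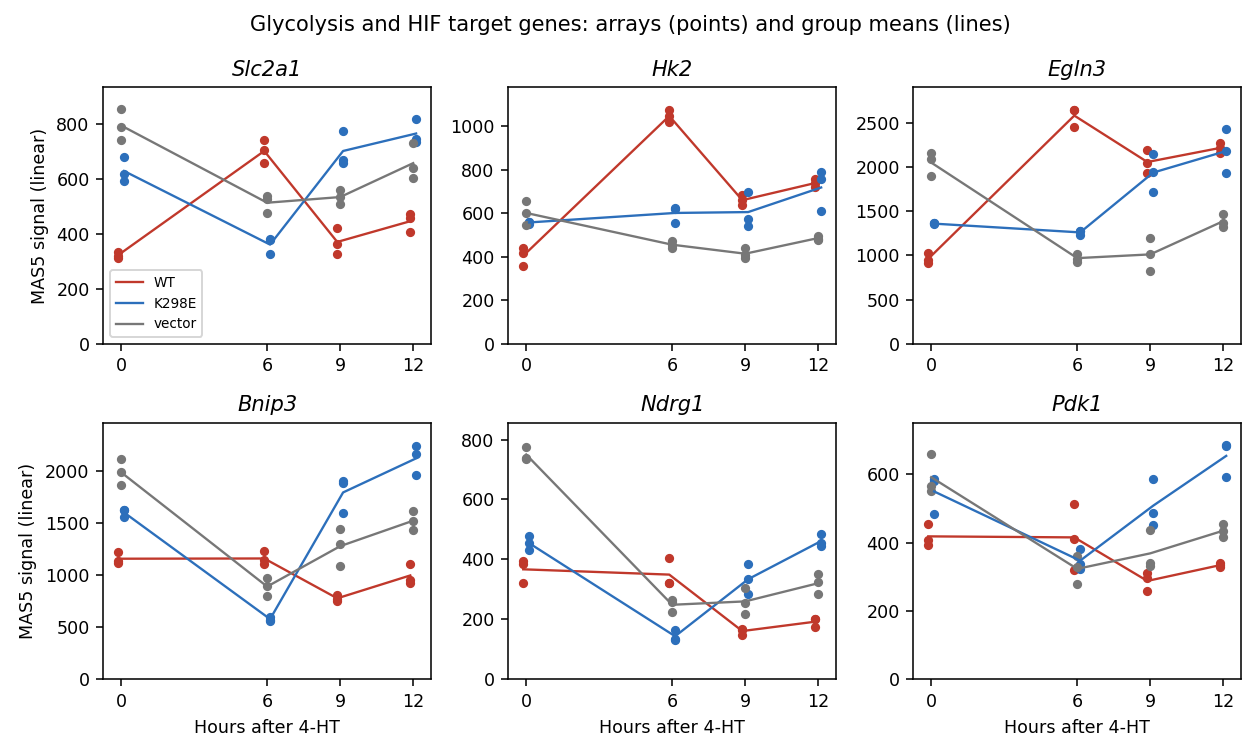
Signal of 6 glucose-use and HIF target genes on each array (points) and group means (lines) against hours of 4-HT, for WT (red), K298E (blue) and vector (grey) cells; every vertical axis starts at 0. At 6 h the WT points lie above the K298E points for all but Pdk1, and at 9 and 12 h the order is turned or gone for Slc2a1, Bnip3, Ndrg1 and Pdk1.

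The glucose-use and HIF list did not keep its direction at the later times, which share the 0 h arrays with the comparison at 6 h. At 9 h 2 of the 29 were higher (4.05% of all genes) and 7 lower (4.37%), and at 12 h 2 were higher (4.75%) and 9 lower (5.27%), with medians of -0.23 and -0.33. For Slc2a1 the WT minus K298E change was 1.91 at 6 h, 0.03 at 9 h and 0.18 at 12 h, for Bnip3 1.47, -0.73 and -0.62, and for Ndrg1 1.57, -0.72 and -0.94. The difference between 6 and 12 h, in which the 0 h arrays cancel, was tested directly: 210 genes were higher at 6 h (1.15%) and 81 lower (0.445%), and 15 of the 29 list members were higher and 0 lower. It was 2.51 for Ndrg1 (adjusted p = 2.87e-16), 2.09 for Bnip3 (adjusted p = 7.24e-16), 1.73 for Slc2a1 (adjusted p = 7.57e-13) and 1.0 for Egln3 (adjusted p = 1.98e-06). The K298E mean of Bnip3 was 579 at 6 h, 1796 at 9 h and 2124 at 12 h, beside 1161, 778 and 998 in WT. This test was added after the values had been seen. Over all probe sets it called 460, against 51 under median centring, 240 with only the arrays compared and 126 without the arrays numbered 2. Under median centring Pdk1 (adjusted p = 0.0955), Egln3 (0.223), Pfkl (0.323), Hk2 (0.465) and Mxi1 (0.705) were not called.

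Other named genes are given at the same 3 times. Tfec had 2.67 at 6 h, 2.61 at 9 h and 2.99 at 12 h, Alas1 1.89, 2.17 and 2.46, Spns2 -2.12, -1.92 and -2.09, Gata2 -0.77, -0.83 and -1.03, and Cebpa -1.62, -1.75 and -1.89. Clec4d, in contrast, went from 1.36 to -0.64 and -0.53, and Trib1 from 2.04 to 1.04 and 0.50. Gpr84 went from 0.96 to 1.74 and 2.17, a difference of -1.21 between 6 and 12 h (adjusted p = 2.91e-05). The MYC and ribosome list had 17 of 33 higher at 9 h (4.05% of all genes) and 17 at 12 h (4.75%), with 0 lower at 9 h (4.37%) and 1 at 12 h (5.27%). DNA replication genes, with 0 higher at 6 h, had 8 of 30 higher at 9 h and 10 at 12 h, beside the same shares.

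Of 25 sterol and fatty acid synthesis genes 4 were higher (1.71% of all genes) and 1 lower (2.5%). Over the 6 h, 17 of the 25 fell in WT (12.4% of all genes) and 19 in K298E (4.17%). Acaca, which makes malonyl-CoA for fatty acids, rose in WT from 306 ± 13.9 to 582 ± 62.0 (SD, n = 3) and went from 333 ± 24.4 to 349 ± 15.5 in K298E, a difference of 0.85 ± 0.17 (adjusted p = 0.00123). Fdps, of the mevalonate pathway, fell in K298E from 1566 ± 142 to 909 ± 38.3 and went from 1752 ± 151 to 1541 ± 96.3 in WT (0.60 ± 0.12, adjusted p = 0.00104). Only 2 of the 4 were higher without K298E 0 h replicate 3 or without K298E 6 h replicate 1, and only Acaca was under median centring.

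Of 34 ATF4 and endoplasmic reticulum stress genes, 1 was higher (1.71% of all genes) and 3 lower (2.5%). Herpud1, which helps clear misfolded proteins, read 583, 591 and 563 and then 174, 165 and 178 in WT, and 436, 523 and 415 and then 220, 251 and 247 in K298E. Both lines fell, and WT further, a difference of -0.81 ± 0.13 (adjusted p = 5.94e-05). A further Herpud1 probe set, with a highest group mean of 532, did not pass the threshold (-0.42 ± 0.22, adjusted p = 0.49). Nupr1, a stress-induced nuclear protein, fell in K298E from 94.7 ± 8.50 to 46.0 ± 7.55 and read 205 ± 4.58 and then 194 ± 2.65 in WT (0.92 ± 0.16, adjusted p = 0.000212). The count of 3 lower was 1 without K298E 0 h replicate 1 or K298E 6 h replicate 3, and under median centring 0 of the list were called.

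Interferon response genes had 0 higher (1.71% of all genes) and 3 lower (2.5%) of 25, with a median of -0.41. In WT 13 of the 25 fell (12.4% of all genes) and in K298E 4 (4.17%). Psmb8, an immunoproteasome subunit, read 1089, 1054 and 1048 and then 724, 601 and 624 in WT, and 831, 806 and 851 and then 743, 806 and 755 in K298E. WT began above K298E and ended below it, a difference of -0.60 ± 0.10 (adjusted p = 4.55e-05). Usp18, a protease that removes ISG15, fell in WT from 166 ± 10.1 to 89.3 ± 6.81 and went from 106 ± 7.51 to 112 ± 7.02 in K298E (-0.96 ± 0.19, adjusted p = 0.00143). Psmb9 lost its call without 7 of the 12 single arrays, and under median centring 0 of the list were called.

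Among 25 genes of the BCL2 family and apoptosis, 1 was higher (1.71% of all genes) and 5 lower (2.5%), with a median of -0.26. Bcl2, the founding inhibitor of mitochondrial cell death, read 564, 533 and 508 and then 387, 406 and 409 in WT, and 434, 440 and 410 and then 493, 588 and 544 in K298E. It fell in WT from above to below K298E, a difference of -0.75 ± 0.17 (adjusted p = 0.00475), and 2 of 4 further probe sets passed the threshold. Cflar, an inhibitor of caspase-8, was lower by -0.92 ± 0.16 (adjusted p = 0.000243), and Aven, an apoptosis inhibitor, was higher by 0.92 ± 0.20 (adjusted p = 0.0026). Aven rose by 1.44 in WT, 1.13 in vector cells and 0.52 in K298E. The other lower members were Bcl2l1 (BCL-XL), an inhibitor of cell death, and the BH3-only activators Bcl2l11 (BIM) and Bbc3 (PUMA), and they lost their calls without 9, 8 and 4 of the single arrays. Of further probe sets, 0 of 4 passed the threshold for Cflar, 0 of 3 for Bcl2l1 and 0 of 4 for Bcl2l11. The count of 5 lower was 2 or 3 without any 1 of 6 arrays, WT 0 h replicate 1 or 2, WT 6 h replicate 1, K298E 0 h replicate 1 or 2 or K298E 6 h replicate 2, and 0 under median centring. Of 15 estrogen receptor targets, 1 was higher (1.71% of all genes), Myc, and of 11 ID and E proteins 1 was lower (2.5%), Tcf4, whose call was lost without WT 0 h replicate 3 (0.0625) or WT 6 h replicate 1 (0.0638).

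**Figure D4:**
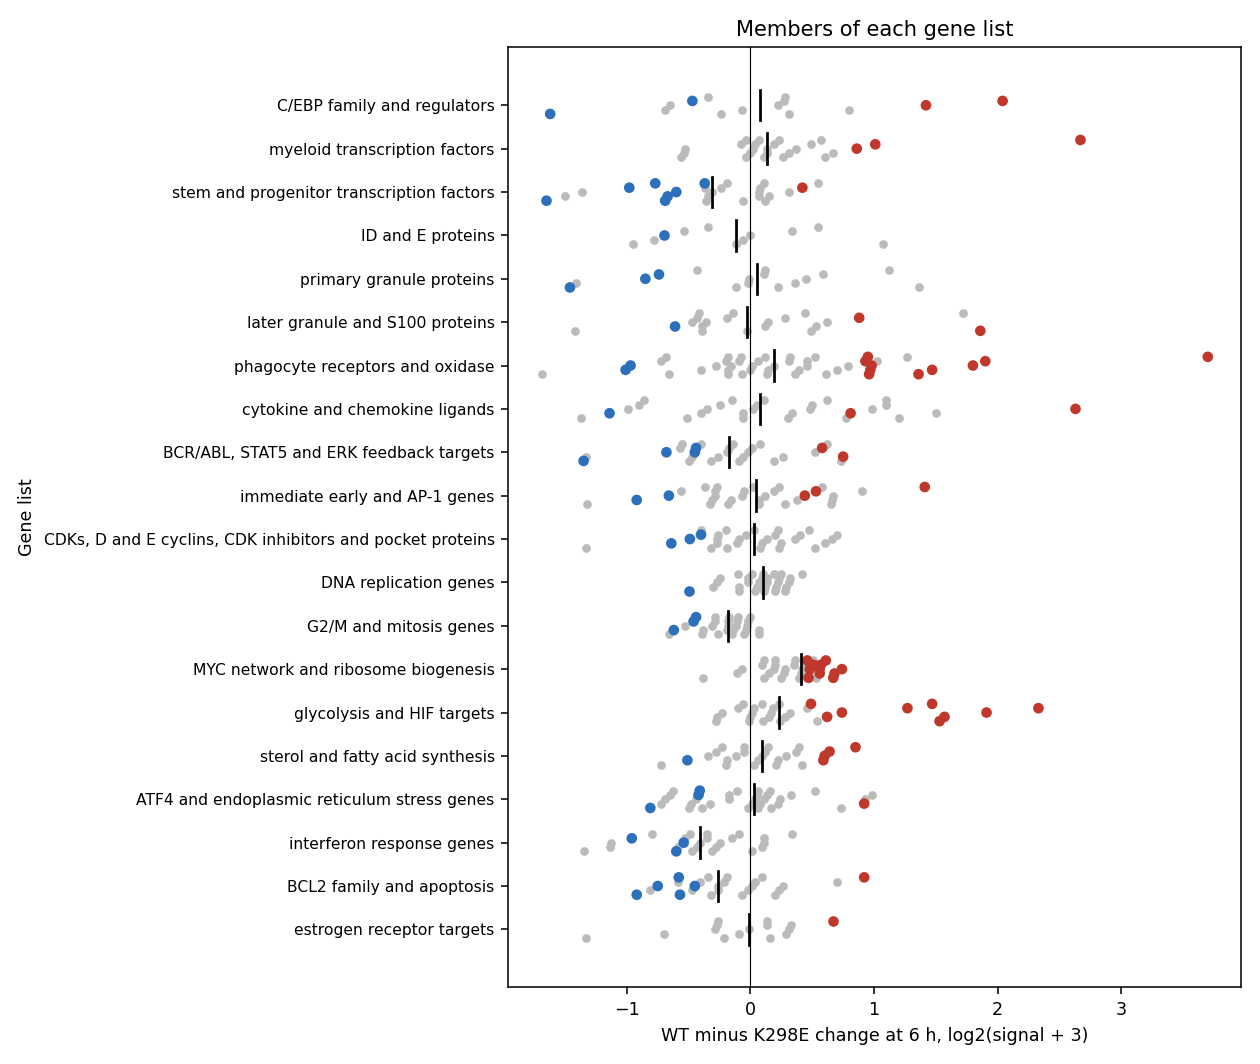
WT minus K298E change at 6 h, in log2(signal + 3), of all measured list members; coloured points passed the threshold (red higher, blue lower), grey ones did not, and the black bar is the list's median. The glucose-use, MYC and phagocyte lists hold 9, 11 and 10 coloured points above 0, and the stem and progenitor list 7 below 0.

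The Δ(177-191) and vector lines give a comparison of a fusion line with a line without fusion on 12 other arrays. The Δ(177-191) minus vector change at 6 h shares no array with the WT minus K298E change, and it passed the threshold in 937 genes upward (5.15%) and 1119 downward (6.15%). Of the 311 genes higher in WT minus K298E, 124 (39.9%) were higher there too, which is 13.2% of its 937, and 52 (16.7%) were lower. Of the 455 lower genes, 176 (38.7%) were lower there, 15.7% of its 1119, and 48 (10.5%) were higher. Both changes were fitted over all 48 arrays with a shared estimate of each probe set's spread, so their calls are not independent. What this adds to the overlaps in either direction was not tested. The deletion leaves the DNA-binding region in place, while vector cells hold no fusion. The Δ(177-191) line already differed from the others at 0 h, for example with Gata2 at a mean of 409.

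Among the 30 named genes, Runx3 (-4.68 ± 0.28), Spns2 (-4.49 ± 0.16), Nol4l (-2.72 ± 0.17), Zfpm1 (-2.61 ± 0.15), Chst12 (2.60 ± 0.12), Dgat1 (2.58 ± 0.12), Vsir (2.51 ± 0.22), Slc8b1 (2.21 ± 0.21) and Alas1 (2.07 ± 0.18) passed the threshold in the same direction in Δ(177-191) minus vector. Alas1 there went from a mean of 461 to 1899 in Δ(177-191) cells and from 85.3 to 82.0 in vector cells. Slc2a1 (-0.57 ± 0.13, adjusted p = 0.00222) and Ak4 (-0.56 ± 0.13, adjusted p = 0.00236) passed the threshold in the opposite direction. Tfec (0.38 ± 0.17), Igsf6 (0.83 ± 0.50), Cd33 (0.21 ± 0.43), Trib1 (-0.19 ± 0.42) and Cebpa (-0.46 ± 0.20) were among those that did not pass it, with adjusted p from 0.217 (Cebpa) to 0.922 (Trib1). Gata2 was lower there too (-1.43 ± 0.12, adjusted p = 1.43e-12). Myb was lower in Δ(177-191) minus vector by -1.78 ± 0.14 (adjusted p = 2.79e-13), and Myc, higher in WT minus K298E, was lower there by -1.64 ± 0.13 (adjusted p = 3.89e-13). The glucose-use and HIF list had 3 higher (5.15% of all genes) and 7 lower (6.15%) of 29. The MYC and ribosome list had 1 higher (5.15% of all genes) and 21 lower (6.15%) of 33. A lower value there can be a smaller rise: Bop1 rose by 0.85 in vector cells (adjusted p = 1.16e-12) and by 0.27 in Δ(177-191) cells (adjusted p = 0.00464), and Utp20 by 1.21 (adjusted p = 6.21e-13) and 0.60 (adjusted p = 5.96e-06). Myc itself fell by 1.36 in Δ(177-191) cells (adjusted p = 9.50e-16).

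**Figure D5:**
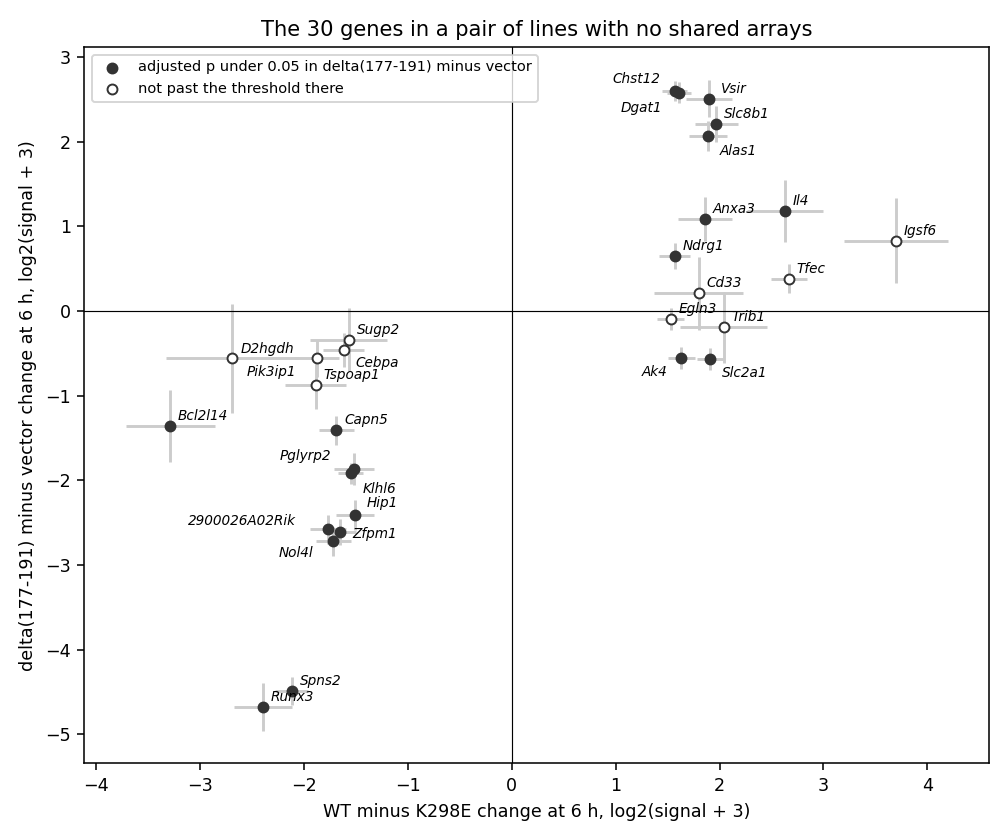
The 15 highest and 15 lowest genes by WT minus K298E change at 6 h (horizontal) and Δ(177-191) minus vector change at 6 h (vertical), both in log2(signal + 3), with standard errors; filled points passed the threshold in the second comparison. Of the 15 higher genes 8 passed it upward and 2 downward, and of the 15 lower genes 10 passed it downward.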

How the data were processed

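RNA of 48 samples was hybridised to 1 array each. The deposited values are linear signal intensities that hold whole numbers only; the submitters' processing notes name MAS5 without a version. Trimming 2% of probe sets at either end leaves a mean of 100 on all arrays. Of 45101 probe sets 64 controls were left out. The platform annotation gives 1 symbol for 34945 of the others, several for 932 and none for 9160. For 34741 of the first, the gene identifier was found in a RefSeq gene table (GRCm38.p6). A gene is represented by its probe set with the highest mean.

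Signals were taken as log2(signal + 3) and fitted in limma 3.58.1 (R 4.3.3) with 16 group means over the 48 arrays, a variance trend and 32 residual degrees of freedom, after a check on simulated data. The WT minus K298E change is an interaction contrast, and p-values are two-sided and adjusted over all 45037 probe sets. The added 3 understates changes of low signals. Precision is limited by 3 arrays a group.

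The rule named the 15 highest and 15 lowest called genes with a group mean of 100 or more, up to 2 called members per list and direction with that signal, and Esr1, Cebpa, Myb and Gata2. Other called list members are named after their values were seen. Members and lists were chosen with earlier results of these data known. Counts over 20 gene lists and 6 lists of markers of other cell types are given in the text. Alternatives were other added values, a filter, quantile normalisation, median centring, the compared arrays alone, a replicate block, array weights, no variance trend and left-out arrays.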

Additional observations from a re-analysis of the deposited data

Results flagged for a closer look

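For 20 of the 109 named genes past the threshold at 6 h, the WT minus K298E change differed between 6 h and 12 h. That difference was tested directly (limma, adjusted p under 0.05), and the 0 h arrays cancel in it. The genes were named after passing the threshold at 6 h, and the same 6 h arrays enter this test. A value further from 0 at 6 h was thus favoured by the choice. Over all genes, 210 were higher at 6 h (1.15%) and 81 lower (0.445%). Among the 20, the WT minus K298E change was higher at 6 h for Ndrg1 (2.51 on the log2 scale), Ankrd37 (2.33), Bnip3 (2.09), Slc2a1 (1.73), Pdk1 (1.19), Egln3 (1.0), Pfkl (0.82), Hk2 (0.75) and Mxi1 (0.54), which are in the glucose-use and HIF list. It was also higher at 6 h for Clec4d (1.89), Pglyrp2 (1.46), Ak4 (1.19), Il2ra (1.09), Tnfsf9 (1.07), Pim2 (0.90), Fosl2 (0.80), Bbc3 (0.73), S100a4 (0.71) and Fcgr3 (0.69). It was lower at 6 h for Gpr84 (-1.21). For Pglyrp2, Il2ra, S100a4 and Bbc3 the WT minus K298E change was below 0 at both times, so a higher value at 6 h means a smaller reduction then. Vector cells, which hold no fusion, went over the first 6 h from a mean of 1989 to 891 for Bnip3, the mitophagy receptor, and from 591 to 323 for Pdk1, the pyruvate dehydrogenase kinase; the part of this in the differences was not tested. Under median centring Ndrg1, Ankrd37, Bnip3, Clec4d, Slc2a1, Pglyrp2 and Gpr84 kept the call, and the other 13 did not.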

How the results depend on the processing

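Of 1232 probe sets called for the WT minus K298E change at 6 h, 256 were left under median centring (137 higher and 119 lower) and 813 in a fit of the 12 arrays alone. Median centring left 3771 of 6606 for the WT change, 572 of 2117 for the K298E change, 1376 of 3317 for Δ(177-191) minus vector, 693 of 2525 for WT minus K298E at 9 h and 1249 of 2959 at 12 h, where the split of 1377 higher and 1582 lower became 944 and 305. The K298E change had 1124 with only its own arrays. With arrays left out, the 6 h count was 390 to 1185, and the others were 4466 to 5942 (WT), 899 to 1711 (K298E), 1848 to 3135 (Δ(177-191) minus vector), 964 to 2335 (9 h) and 1289 to 2720 (12 h); each lowest value came without the arrays numbered 2 in all groups, which leaves 2 arrays a group. The cause of the other shifts was not tested. The median over all probe sets was -0.031 as reported, -0.002 after quantile normalisation and 0.03 after median centring. Other added values, the filter, quantile normalisation, array weights and no variance trend kept the 6 h count within 1.5 times, between 896 and 1528. Same-numbered arrays of K298E at 0 and 6 h deviated together (correlations of 0.129, 0.227 and 0.269), but of all 18 same-numbered pairs only 5 were over 0.1 (from -0.315 to 0.311), so the numbers were not used as pairs. The replicate block gave 1291 at 6 h, 6670 for WT, 2190 for K298E, 3425 for Δ(177-191) minus vector, 2590 at 9 h and 3030 at 12 h. Of 109 named genes past the threshold, 37 kept call and direction under all alternatives and 0 reversed; 65 lost the call under median centring and 54 without the arrays numbered 2. Signals near 0 limit what low genes can show.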
